A study of Zea mays with 10 samples.

Results

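The normal ear primordium of maize was described from 3 RNA-seq libraries, the RNA-seq pools of heterozygous fea4/+ ears, out of 10 samples in the series. All gene models of the deposited expression table were read in these 3 pools, and a gene was counted as present where the mean of its 3 FPKM values (fragments scaled to transcript length and to the library total) was at least 1. Of 39636 gene models, 18843 (47.5%) were present. The series studies FEA4 (FASCIATED EAR4), a transcription factor of the bZIP class that controls the size of shoot meristems; its other samples are homozygous mutant ears and ChIP-seq of tassels. Each pool held more than 10 ears of 1 mm from families that segregated the mutation and grew in the field. The ears were fixed in acetone, and ScriptSeq libraries were prepared from messenger RNA purified on oligo-dT beads. The fea4-ref allele came from chemical mutagenesis of the inbred A619 and had been crossed 4 to 5 times into various inbreds, so the genetic background of a pool is not known beyond that. The labels call these plants wild type, but each carries 1 mutant copy of fea4, and no ears without the mutation were in the RNA-seq data.

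A maize ear of this size is a set of meristems, groups of dividing cells that keep a stem cell reserve and set aside lateral organs. The inflorescence meristem at the tip gives rise to rows of spikelet pair meristems, which form spikelet meristems and then floral meristems. KNOTTED1-like homeobox (KNOX) genes of class I mark cells that are not yet committed to organs. Receptor proteins of the CLAVATA type limit the stem cell reserve, and the RAMOSA genes keep side branches of the ear short. Because whole ears were pooled, fewer cells of a type and less RNA per cell cannot be told apart in any level given here.

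The 3 pools held 15970835, 17474799 and 20956775 fragments. The spread between any pair of pools was larger than counting noise, with a chi-square of 10.8 to 16.6 for each degree of freedom over genes with at least 10 fragments, and Pearson's r across genes of log2(FPKM + 1) was 0.970 to 0.974, where genes are not independent replicates. A mean of 1 FPKM rested on few fragments. The 475 genes with mean FPKM of 0.9 to 1.1 had a median of 87 fragments over the 3 pools, for which the 95% Poisson interval is 69.7 to 107. The 13854 gene models (35.0%) with 0 fragments in every pool are below a limit of 3 fragments among 54402409, a limit that covers counting error only.

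Levels spanned more than 3 orders of magnitude. Of the present genes, 8269 had a mean FPKM of 1 to under 10, 9660 had 10 to under 100, 901 had 100 to under 1000, and 13 had at least 1000. The middle of these classes, 10 to under 100 FPKM, held 52.8% of the summed FPKM, and the 901 genes above it held 36.2%. The 13 genes of the highest class held 3.67%. The median of the present genes was 12.2 FPKM, and 1601 genes together held 50% of the summed FPKM. Of the 18843 present genes, 17545 (93.1%) had at least 1 FPKM in each of the 3 pools. The numbers of genes at or above 1 FPKM were 18734, 18758 and 18728 in pools 1 to 3.

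**Figure D1:**
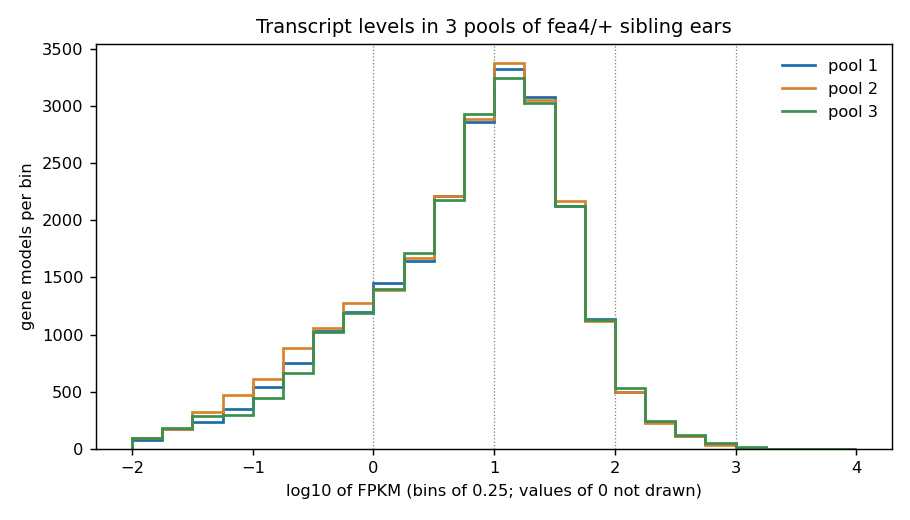
Number of gene models (y axis) by log10 of FPKM in bins of 0.25 (x axis) in each of the 3 pools of fea4/+ ears, with dotted lines at 1, 10, 100 and 1000 FPKM. The 3 outlines lie close together above 1 FPKM, where 18734, 18758 and 18728 genes were found, and differ more below it, where few fragments stand behind a value.

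The single most abundant transcript was HRGP (GRMZM2G168651), which encodes a hydroxyproline-rich glycoprotein, a structural protein of the cell wall. It had 4782, 4027 and 5106 FPKM in pools 1 to 3, a mean of 4638 ± 553 FPKM (SD, n = 3), and held 0.844% ± 0.0796 of the summed FPKM. The 10 most abundant genes held 3.10% ± 0.351, the 100 most abundant 13.3% ± 0.703 and the 1000 most abundant 41.4% ± 1.15 (SD, n = 3). By fragments, which are not divided by length, these shares were 2.62% ± 0.134, 10.7% ± 0.482 and 37.3% ± 0.753.

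Of the 20 genes of highest mean FPKM, 7 had a gene name. Besides HRGP they were RAB15, the HMG-box chromatin protein gene MNB1B (1318 ± 146 FPKM), the heat shock protein gene hsp70-4 (1121 ± 127), the ubiquitin gene MUB3 (998 ± 117), the histone deacetylase gene HDT1 (972 ± 51.9) and the translation elongation factor gene EF1-A (945 ± 27.9; SD, n = 3 each). Chaperones, protein turnover, chromatin and translation were thus each represented at the top by a named gene. By fragments, the first 10 also held the DnaJ-type chaperone gene cdj2 and HSP90-2, with mean levels of 807 and 575 FPKM, and 4 of the first 10 were shared between the 2 orders.

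For some of the most abundant genes the FPKM differed between pools more than the fragments did. The second gene in the order, GRMZM2G303374, had 2575, 1445 and 2788 FPKM, a coefficient of variation (CV, SD over mean) of 31.8%. Its CV in scaled fragments, which are fragments scaled to the library total alone and not to length, was 3.82%. RAB15 (GRMZM2G165901) had 1593, 979 and 1826 FPKM, with CVs of 29.9% and 5.44% in the same units. GRMZM2G144995 had 1213, 618 and 1371 FPKM, with CVs of 37.2% and 18.0%. In all 3 genes pool 2 was the lowest in FPKM, and the FPKM that 1 scaled fragment was worth differed between pools by 1.79, 1.81 and 1.56 times, against a median of 1.03 times over 16102 genes. The transcript lengths behind the FPKM were not analysed here. This ratio was over 1.5 in 150 genes and over 1.1 in 2068 (12.8%). AC155610.2_FG009 is a different case: it stood at rank 13 by FPKM (1009.9, 1007 and 985 FPKM) and at rank 4387 by fragments.

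The lists of known regulators held 232 gene models, of which 151 (65.1%) were present, against 47.5% of all gene models and 66.9% of the 2532 models that have a gene name. Regulators were therefore present about as often as named genes in general. Of the 151, 11 had at least 100 FPKM, 81 had 10 to under 100 and 59 had 1 to under 10, and 43 of the 232 had 0 fragments in every pool. When the present regulators of each list were put in order of mean level, the ranges of neighbours over the 3 pools overlapped in 90 of 141 pairs, so the order within a list is resolved only in part.

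All 10 KNOX homeobox genes of the list were present, as was rs2, a MYB factor that represses KNOX genes and is counted with them. KNOX genes of class I keep meristem cells uncommitted, and 4 of the list were not assigned to that class. kn1 (GRMZM2G017087), the founding member and a marker of the meristem, had 514, 615 and 564 FPKM, a mean of 565 ± 50.4 (SD, n = 3), and stood at rank 55 among all gene models. Its lowest pool lay far above the highest pool of lg3, which had 48.9, 53.0 and 45.4 FPKM. The repressor gene rs2 had 40.8, 35.8 and 37.2 FPKM, below the range of lg3. knox7, knox3 and knox6 had means of 29.5, 29.2 and 28.8 FPKM, and their ranges overlapped. Among these, knox6 was even between pools (CV 2.84%), while knox3 had 22.6, 41.3 and 23.6 FPKM, with pool 2 above both others. gnarley1, lg4 and knox8 closed the list at 12.1, 9.61 and 1.59 FPKM.

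Of 21 genes of meristem size signalling and WUSCHEL-related homeobox genes, 15 were present. The highest was ERECTA (GRMZM5G809695), a receptor-like kinase known mostly from Arabidopsis, at 210, 219 and 189 FPKM (rank 327, and 59 by fragments). The G protein genes came next. ZGB1, the beta subunit, had 49.7, 55.1 and 53.4 FPKM, and ct2, the alpha subunit that acts with CLAVATA receptors in maize, had 38.6, 45.0 and 48.1 FPKM. The ranges of ERECTA, ZGB1 and ct2 did not overlap.

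The CLAVATA-type receptor genes stood lower. fea2, the CLAVATA2-like receptor protein, had 16.3, 14.9 and 18.1 FPKM (rank 7701). TD1, the CLAVATA1-like receptor kinase, had 6.65, 7.01 and 10.3 FPKM (rank 11790, and 7546 by fragments). fea3, a receptor-like protein that acts from below the stem cells, had 4.61, 3.78 and 7.96 FPKM (rank 13633). In all 3, pool 3 was the highest, and the range of fea2 lay above those of TD1 and fea3. The CV over pools was 9.88% for fea2, 25.3% for TD1 and 40.5% for fea3.

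FEA4 itself (GRMZM2G133331) had 4.51, 4.21 and 4.68 FPKM, a mean of 4.46 ± 0.239 (SD, n = 3) from 345 fragments, at rank 14485 of 39636. Its CV over pools was 5.36%. Counting alone would give a median CV of 9.23% for genes at 1 to under 10 FPKM. These counts therefore cannot show whether FEA4 was even between pools. The range of FEA4 overlapped that of abph1, a response regulator of cytokinin signalling, which had 5.69, 3.76 and 4.11 FPKM. Transcript from the mutant and the normal copy was not separated in these values. lg2, another bZIP gene, had 6.75, 5.17 and 10.8 FPKM.

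The stem cell regulator wus1 was at the limit of what was counted as present, with 1.39, 0.962 and 0.749 FPKM from 71 fragments over the 3 pools. A value under 1 in pools 2 and 3 means that wus1 is present only through the mean. wus2 had 0.25 FPKM. Of the other WUSCHEL-related genes, the wox3A model GRMZM2G122537 had 17.9, 14.5 and 24.7 FPKM and wox9C had 6.64, 3.46 and 9.50, with pool 3 highest and pool 2 lowest in both. The model GRMZM2G069028, which the reference names ns1 and WOX3A, lay just outside the threshold at 1.04, 0.189 and 1.34 FPKM. Other regulators just inside it were bif2, yab10 and YAB5, and just outside it AUX36, TCP8 and yab9.

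**Figure D2:**
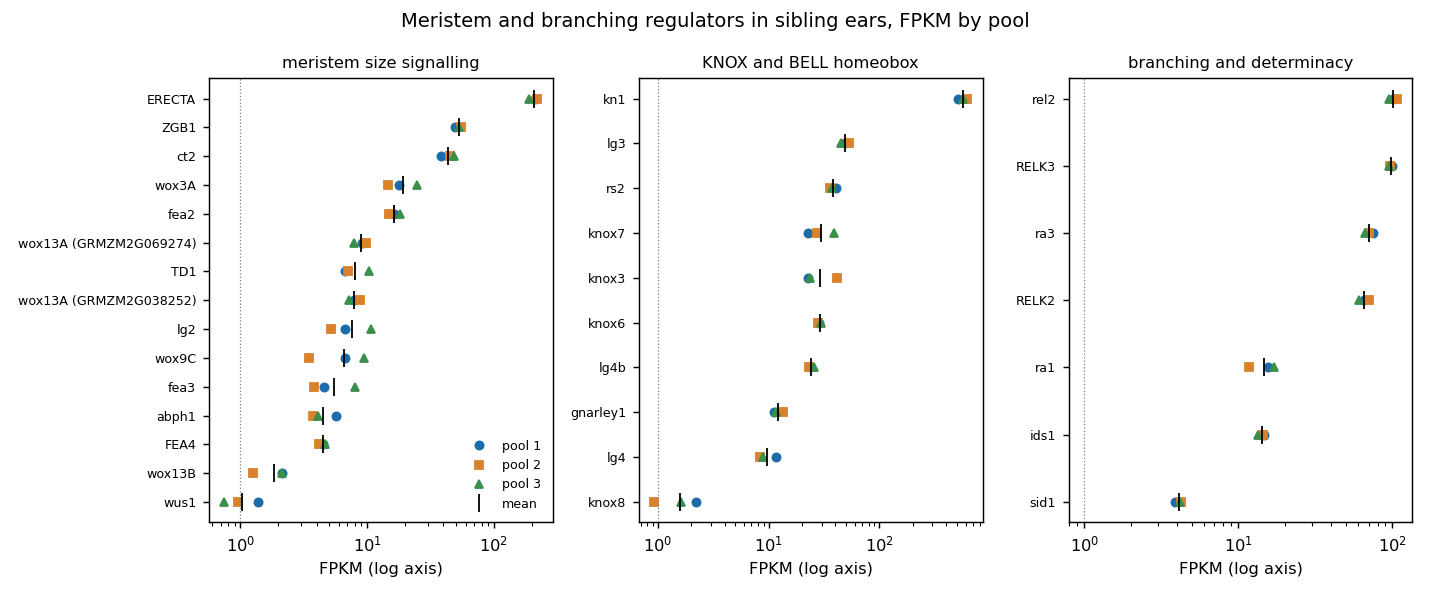
FPKM on a log axis (x) of present genes of meristem size signalling, KNOX homeobox with the repressor gene rs2 (10 of 11 drawn) and branching and determinacy (y), with 1 point per pool and a bar at the mean of the 3 pools; the dotted line is 1 FPKM. kn1 at 514 to 615 FPKM stands above the other genes of its panel, FEA4 lies at 4.21 to 4.68, and wus1 straddles the line at 0.749 to 1.39.

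Of 8 genes that control branching and determinacy, 7 were present. The corepressor gene rel2 had 101, 107 and 94.7 FPKM, and its relatives RELK3 and RELK2 had 97.2 ± 1.67 and 65.7 ± 5.21 FPKM (SD, n = 3 each). ra3, a trehalose-6-phosphate phosphatase that keeps ear branches short, had 74.5, 70.9 and 66.6 FPKM (mean 70.7 ± 3.94, rank 1482). ra1, the zinc finger factor of the same pathway, had 15.7, 11.8 and 16.9 FPKM (rank 8342, and 12970 by fragments), with pool 2 the lowest. The ranges of ra3 and ra1 lay far apart on this per-length scale. The AP2-type genes ids1 and sid1, which act in spikelet meristems, had 14.7, 14.6 and 13.5 FPKM and 3.86, 4.26 and 4.18 FPKM, and both were even between pools. The spikelet meristem gene bd1 was the 1 member not present, at 0.63 FPKM from 55 fragments.

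The genes that start axillary meristems and carry auxin signalling formed the largest list, with 37 of 60 present. BA1, a bHLH factor needed for axillary meristems, had 26.8, 28.2 and 30.2 FPKM (rank 4681, and 8317 by fragments; CV 6.15%). The auxin efflux carriers PIN1a and PIN1d had 44.3 ± 4.13 and 43.6 ± 6.02 FPKM (SD, n = 3 each), and their ranges overlapped. Of the Aux/IAA repressors, AUX6 was highest, at 129.1, 129.6 and 127.3 FPKM, and BIF1 and BIF4, which are needed for axillary meristems of the inflorescence, had 25.3 ± 2.40 and 10.5 ± 1.02 FPKM. Of 20 auxin response factor genes, 15 were present, led by ARF28, ARF13 and ARF10 at 101, 96.3 and 78.9 FPKM.

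Auxin synthesis genes were low. spi1, a YUCCA-like gene needed in the inflorescence, had 2.57, 2.56 and 4.03 FPKM, from 188 fragments. The other YUCCA models of the list, among them Yucca2, Yucca3 and Yucca6, had 0 fragments in every pool. bif2, a kinase that acts with auxin transport, had 0.794, 0.821 and 1.46 FPKM. It passed the threshold only through pool 3.

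SBP-box genes, some of which mark the boundary of meristems, were mostly present (22 of 24). sbp16 was highest, with 67.1, 82.8 and 61.4 FPKM, followed by sbp6 and sbp29 at 54.5 and 49.1. ub2 and ub3, which limit the number of kernel rows, had 15.8 ± 0.783 and 10.8 ± 0.882 FPKM (SD, n = 3 each). The 2 members under 1 FPKM were tga1 and lg1, at 0.60 and 0.03. tga1 acts in the glume that encases the kernel and lg1 in the leaf ligule.

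Growth-regulating factors and their partners were also mostly present, with 18 of 19 in the list of boundary and growth genes. Their coactivator GIF1 had 315, 306 and 352 FPKM (rank 163), and the highest factor, GRF10, had 47.8 ± 3.57 FPKM. The boundary gene nam1, of the NAC class, had 50.4, 39.4 and 45.8 FPKM. gt1, a homeobox gene that holds back buds and carpels, had 14.4 ± 0.523 FPKM and was even between pools (CV 3.64%), and the list of bract and bud genes had 5 of 8 present.

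Flowering and MADS-box genes were present less completely, with 20 of 59. The highest were the MADS-box genes MADS36 at 232, 221 and 261 FPKM and m4 at 203, 191 and 233. Their ranges overlapped, and both lay above m5 (which the reference also names SOC1) at 116, 111 and 116 FPKM. ZAGL1, MADS15 and zap1, all MADS-box genes, followed at 109, 98.4 and 79.3 FPKM. zfl1, a LEAFY-like gene of floral meristem identity, had 20.8, 15.2 and 18.7 FPKM, and the bZIP gene DLF1, which promotes flowering, had 26.7 ± 1.95.

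Several MADS-box genes known from floral organs, picked from this list after their values had been seen, were near 0. ZAG1, an AGAMOUS-like gene of stamens and carpels, and Silky1 (listed as MADS11), which acts in lodicules and stamens, had 0 fragments in every pool, as did zmm6 and zmm17. zag2 and ZAG3 had 0.06 and 0.07 FPKM. zmm16, of the class that acts with Silky1 in grass flowers, had 46.5, 38.5 and 44.2 FPKM, and the MADS-box gene zmm24 had 30.8, 31.8 and 34.2 FPKM and zmm31 had 23.5, 24.9 and 22.1. Of the ZCN genes, relatives of the florigen, only ZCN14 was present, at 2.45, 3.25 and 1.92 FPKM, and the leaf gene id1 had 0.04. tunicate1 (zmm19), which gives pod corn when expressed in the ear, had 0.944, 2.02 and 0.189 FPKM from 86 fragments, and pool 2 lay at least 2-fold above both others. It passed the threshold only through pool 2, so it was bound to be highest there.

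**Figure D3:**
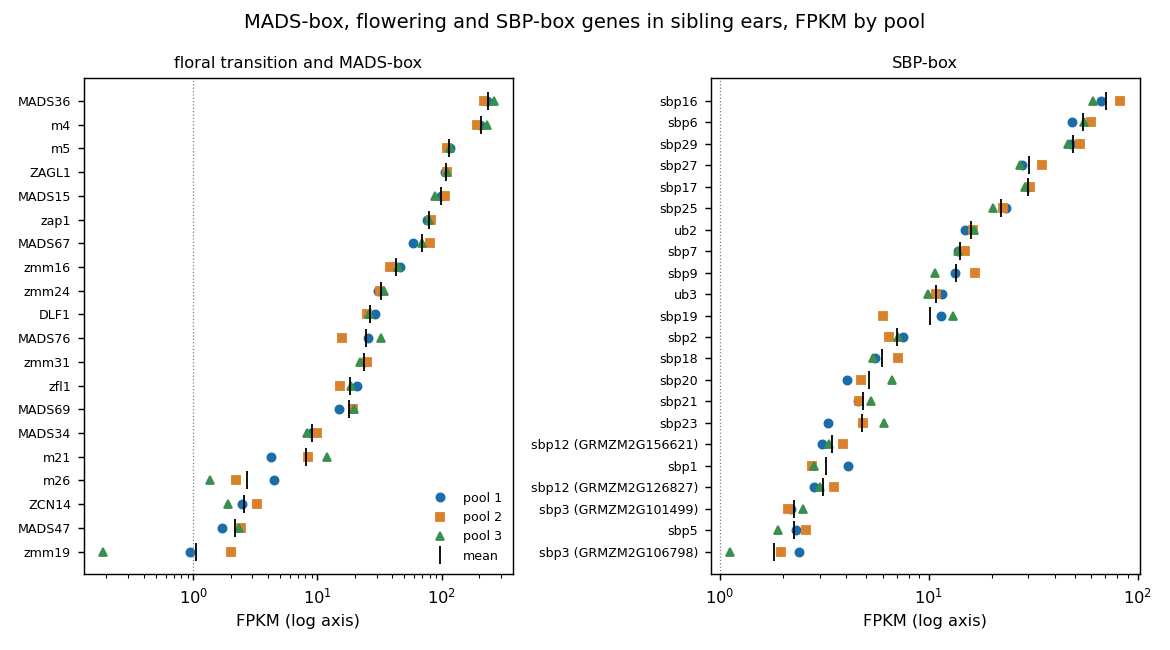
FPKM on a log axis (x) of the present genes of the flowering and MADS-box list (left) and the SBP-box list (right), with 1 point per pool and a bar at the mean of the 3 pools; the dotted line is 1 FPKM. MADS36 and m4 lie above 190 FPKM and zmm19 spreads from 0.189 to 2.02, and the SBP-box genes run from sbp16 at 61.4 to 82.8 down to the sbp3 model GRMZM2G106798 at 1.12 to 2.38.

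Among genes of organ polarity, 8 of 14 were present. lbl1, which is needed to make the small RNAs that set the upper side of the leaf, had 578, 549 and 645 FPKM and rank 47 (12 by fragments), above kn1, although its range overlapped that of kn1. The HD-ZIP III genes rld1 and rld2, which specify the upper side, had 64.9 ± 1.46 and 49.2 ± 1.89 FPKM (SD, n = 3 each). mwp1, a KANADI gene of the lower side, had 2.28, 2.17 and 3.89 FPKM, and kan1 and kan3 had 0 fragments in every pool. The small RNA list, which shares lbl1, had 9 of 9 models present, with dcl1 at 38.1 ± 2.17 FPKM and argonaute1 at 83.5 ± 8.81.

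The epidermis was marked by HD-ZIP IV genes and the receptor kinase cr4, of which 8 of 8 were present. ocl4 had 40.5, 32.6 and 41.8 FPKM, and ocl5, ocl1 and ocl3 had 13.5, 11.9 and 5.04. cr4 had 23.3, 23.2 and 23.4 FPKM, a CV of 0.461%. Of 32 cytokinin and gibberellin genes 21 were present, with the receptor gene HK1 at 33.4 ± 1.64 FPKM, the DELLA gene D8 at 28.2 ± 1.01 and the gibberellin synthesis gene an1 at 38.0 ± 1.44 (SD, n = 3 each).

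Lists of dividing cells and of general cell functions were present almost in full. Of 149 models named for chromatin, cell division, ribosomes and translation, or housekeeping, 146 were present and 0 had no fragment in every pool. All 57 chromatin models were present, with a median of 57.0 FPKM, as were 40 of 41 models of cell division, with a median of 42.4, and 39 of 40 of the ribosome and translation list, with a median of 239. The median over all gene models was 0.648 FPKM, and over models with a gene name it was 6.42. The replication clamp gene pcna2 had 174, 169 and 197 FPKM, the replication helicase gene MCM7 had 101, 91.2 and 121, and the cyclin gene cyclin4 had 61.6, 66.6 and 53.4. Histone and ribosomal protein genes have close copies, and fragments may be shared among copies, which makes the level of any one copy uncertain.

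Transcription factor families were also counted by symbol, for genes whose name is the family name and a number, so members with other names are left out, as tga1 and lg1 are from the SBP count. The share present is read against 66.9% of the models with a gene name and 47.5% of all models, and no difference between families was tested. Of these models 22 of 22 SBP, 7 of 7 PHD, 15 of 16 GRF and 15 of 20 ARF genes were present. The counts were 19 of 30 for bZIP, the family of FEA4, 26 of 45 for bHLH, 14 of 41 for MYB, 9 of 25 for NAC and 2 of 10 for LOB. Among the 39 MADS-box factors of the flowering list, under any name, 17 were present and 14 had 0 fragments in every pool. The families were set together after the gene names had been seen, and some of their members also stand in the lists above.

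Of the 3 lists for other tissues, those of green leaf and of pollen, tapetum and seed had a smaller share present than named models in general (66.9%), and that of lignin and vascular tissue had a like share. Of 25 photosynthesis genes 6 were present and 11 had 0 fragments in every pool, among them ssu1, pep1 and cab48. The list's summed level was 153, 159 and 158 FPKM, of which rcalm alone had 60.2, 56.0 and 63.2, and pep7 and pep4, PEP carboxylase genes, had 42.0 and 35.5. Of 36 pollen, tapetum and seed genes 4 were present and 30 had 0 fragments, and without the starch synthesis gene bt2, at 19.3, 12.6 and 10.7 FPKM, the sum was 5.73, 3.67 and 6.69 FPKM. Many seed storage genes have near-identical copies, so their counts of 0 are uncertain. Of 18 lignin and vascular genes 12 (66.7%) were present, with a median over the list of 6.54 FPKM against 6.42 over named models and a summed level of 226, 260 and 238 FPKM. Of 10 cellulose synthase genes 6 were present, such as cesa3 at 63.0 ± 10.0 FPKM. Of 3 lignin genes 2 were present, as was the 1 phenylalanine ammonia lyase gene. The lignin gene that was not present, BM1, had 0.21 FPKM. Set against the labelled tissue, the meristem markers kn1, ra1, ra3, BA1, fea2 and TD1 were present, while bd1 was under 1 FPKM and wus1 near it. The epidermal markers ocl1, ocl3, ocl4 and ocl5 and the markers of dividing cells were also present. The planned markers ra2 and ocl2 were not in the lists and were not read.

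The spread between pools depended on level. The common biological coefficient of variation, edgeR's estimate of spread beyond counting, was 19.4% over 19073 genes that passed its filter on low counts. Along the trend with level, with genes cut into 4 equal groups, it fell from 36.4% in the lowest group to 20.8%, 13.7% and 9.53% in the next. The median CV of FPKM over the present genes was 14.4%, and that of scaled fragments 13.9%, where counting of the fragments alone would give 5.01%. By class it was 24.4% at 1 to under 10 FPKM, 10.6% at 10 to under 100, 7.70% at 100 to under 1000 and 11.2% at 1000 and above. In the highest class the CV of scaled fragments was 5.90%. The present regulators had a median CV of 11.1%.

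**Figure D4:**
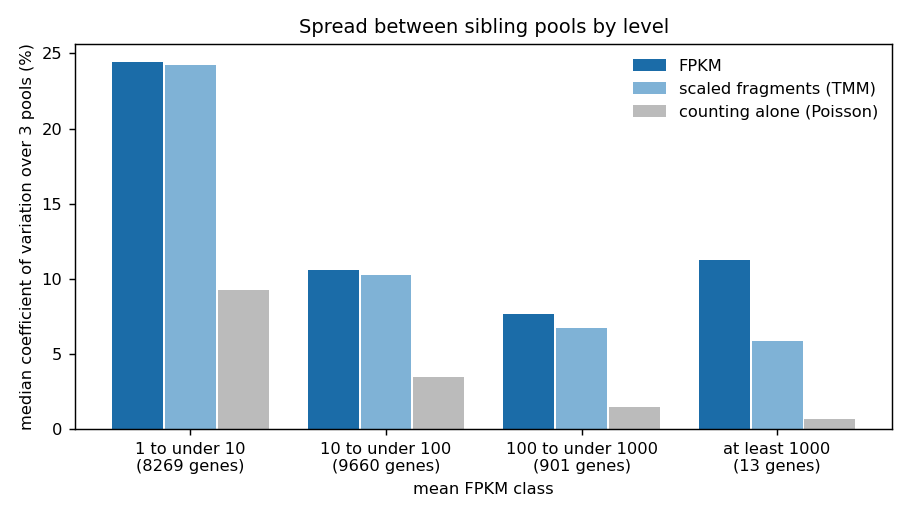
Median CV over the 3 pools in percent (y) for the present genes of each level class (x), in FPKM, in scaled fragments and as counting alone (Poisson) would give. The scaled fragments are scaled to the library total alone, although the legend reads TMM. Bars in FPKM fall from 24.4% to 7.70% and rise to 11.2% in the class of 13 genes at 1000 FPKM and above, where scaled fragments give 5.90%.

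Among 1079 genes with a name, at least 10 FPKM and at least 300 fragments, the lowest spread was in the linker histone gene his1a, at 362, 360 and 359 FPKM (CV 0.338%). cr4, the glycolysis gene pfk1, gs, serk2, the histone deacetylase gene hda101, SGT1, AUX6 and cys2 were also among the 10 lowest, with CVs up to 1.04%. In scaled fragments the CVs of the 10 lowest were 0.533% to 2.92%, except for cys2 at 9.02%. Very low CVs are the extreme of 1079 values from 3 pools each. The highest was in TIFY4 (CV 61.9%), followed by GPDH1, TIFY6, CaM1, cda2, TUBC, fad7, sbp19, knox3 and MYBR86, down to 35.6%. Of these 10, 8 also had a CV over 20% in scaled fragments. The exceptions were TUBC, a tubulin gene, with 38.5% in FPKM and 7.55% in scaled fragments, and MYBR86, with 35.6% and 12.9%.

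A gene stood apart in 1 pool where that pool lay at least 2-fold above or below both others. Of 18549 present genes with at least 50 fragments, 1291 (6.96%) met this in at least 1 pool. Pool 1 was higher in 146 genes and lower in 313, pool 2 in 167 and 265, and pool 3 in 206 and 335. Their median level was 2.01 to 2.31 FPKM in the 6 groups, so most were low genes. Of the regulators 5 were among them: AUX1, m26, zmm19, yab14 and yab10, all with a mean under 3 FPKM. Of these, zmm19 was present only through pool 2, where it was highest.

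TIFY genes, many of which encode JAZ repressors of jasmonate signalling, were singled out after their values had been seen, for their levels in pool 2. Of 21 TIFY models 15 were present, and their median CV was 33.8%. TIFY4 had 18.4, 49.6 and 18.8 FPKM, with 256, 753 and 333 fragments. TIFY28 had 0.0623, 12.6 and 0.0976 FPKM, with 1, 221 and 2 fragments. TIFY20 had 63 fragments in pool 2 and 0 in the others, and TIFY25 had 0, 90 and 13. In these 4 genes pool 2 lay at least 2-fold above both others. Smaller differences in the same direction were seen in TIFY6 at 9.08, 16.5 and 6.33 FPKM, in TIFY24 at 1.82, 3.60 and 2.54 and in TIFY27 at 29.3, 43.6 and 36.1. Other members were close to even, such as TIFY23 at 66.6, 70.6 and 66.9 FPKM, or highest elsewhere, such as TIFY12 at 67.6, 64.8 and 79.4.

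Pool 2 was the highest in 9 of the 15 present TIFY genes, and nothing particular to TIFY genes is shown by this. TIFY20, TIFY25 and TIFY28 were counted as present only through pool 2, as were bHLH108 and bHLH116. Such genes are bound to be highest in pool 2, so these counts cannot serve as support for a difference. Pool 2 was also the highest in 14 of 26 present bHLH genes, 9 of 16 AP2/EREB genes, 11 of 22 SBP genes and 5 of 8 jasmonate synthesis genes. Over all present genes the share was 33.4%. Other lists lay below that share, among them MYB (1 of 14), PHD (0 of 7), NAC (2 of 9), bZIP (5 of 19) and chromatin (11 of 57). The sum over the jasmonate synthesis genes was 69.7, 77.4 and 72.7 FPKM, with 8 of 24 present. Among the 18549 present genes with at least 50 fragments, 167 were at least 2-fold higher in pool 2, and 14 of them had a gene name. Of these 14, 4 were TIFY genes and 3 were bHLH genes. The bHLH genes were bHLH116 at 0.577, 18.6 and 0 FPKM, bHLH108 at 0, 4.42 and 0 and bHLH159 at 2.52, 6.68 and 3.09. TIFY20, TIFY25, TIFY28, bHLH108 and bHLH116 entered this tally only because pool 2 brought their mean to the threshold. The tally therefore cannot show a concentration in either family. The label of pool 2 differs from those of the other pools only in its number, and what separates this pool was not tested. The TIFY, jasmonate synthesis and family lists were made after values had been seen.

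**Figure D5:**
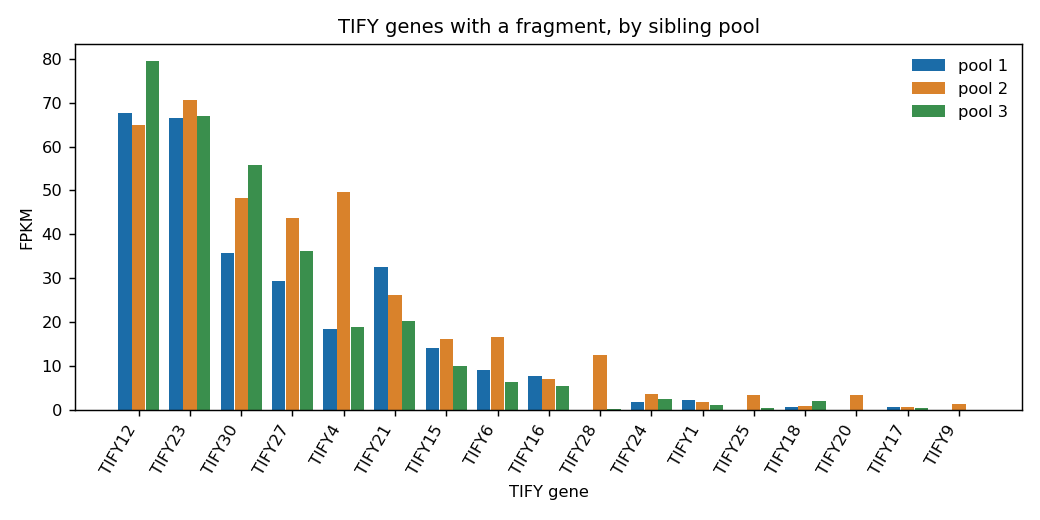
FPKM (y) of each TIFY gene with a fragment in any pool (x), 1 bar per pool. TIFY4 reaches 49.6 and TIFY28 12.6 FPKM in pool 2, while TIFY12 and TIFY30 are highest in pool 3.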

How the data were processed

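RNA-seq was analysed in 3 pools of fea4/+ sibling ears, grouped and numbered by their sample titles, and separate pools per the labels' protocols. The other samples were not used here. Members and gene lists were chosen with earlier results of these data known, and part of the lists was added after gene names and values had been seen.

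The authors deposited expected counts (raw fragments per gene model), of which 20.4% to 21.3% of the values above 0 per pool were not whole numbers within 1e-06, and FPKM values of the same models, per the file headers. Cufflinks 2.0.2, TopHat2 2.0.9, DESeq 1.14.0 and CASAVA stand in the submitters' processing notes, without their roles. Not given in the sources used here are the genome build, how strand and fragments that match several genes were handled, and the lane of each pool. Overlapping genes and antisense partners therefore cannot be separated.

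FPKM were used as deposited, with no pseudocount. Spread was estimated with edgeR 4.0.16 in R 4.3.3 from rounded expected counts (TMM factors 0.985 to 1.01, filterByExpr, intercept only), and tested on simulated data with a known spread. Other values were computed in Python 3.11.15 (numpy 2.4.6, pandas 2.3.3, scipy 1.17.1; figures with matplotlib 3.10.9). With 1 group there is no contrast and no p-value. Intervals and limits cover counting error only, because the fragments carry no molecular identifiers and may be copies of one another.

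Gene names came only from the RefSeq table of assembly Zm-B73-REFERENCE-NAM-5.0: 18255 of 39636 IDs (46.1%) matched a single entry, and a gene name was given for 2532, so 8.98% of the present genes could enter a list. Several models can match 1 entry (wox13A, dcl4), and these are counted as models. Named genes are the 20 highest by FPKM, the 10 highest by fragments, the regulators of the lists, and the 10 named genes of highest and of lowest CV among those with at least 10 FPKM and 300 fragments; genes of other lists, and those apart in 1 pool, were named after their values were seen. Promoter and protein features were not analysed here. Some genes that this rule selects are not reported here. Alternatives were other thresholds, units, scalings and filters, and leaving out each pool.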

Additional observations from a re-analysis of the deposited data

How the results depend on the processing

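No paired analysis was possible because 1 group was described and no groups were compared. The number of present genes stayed between 17078 and 20381 under other thresholds and units and between 18784 and 18854 without 1 pool, against 18843. The deposited FPKM summed to 544628, 534768 and 566681 in pools 1 to 3. Rescaling them to the same, larger sum in each pool (TPM) raised every value above 0 against fixed class limits. After it, 2045 genes in place of 901 lay at 100 to under 1000 and 58 in place of 13 at 1000 or above. The share of the top 10 and top 100 genes was 3.10% and 13.3% by FPKM against 2.62% and 10.7% by fragments. Common biological variation was 28.2% without the filter on low counts, and 17.9% to 20.6% without 1 pool. The median CV was 20.7% over genes above 0 FPKM, 10.3% at 10 FPKM or more, and 10.95% to 12.3% without 1 pool, where an SD comes from only 2 values. The count of genes apart in 1 pool, 1291, was 3654 at 1.5-fold, 434 at 3-fold and 456 with 1 added to each FPKM. Ranked by fragments, 89 of 151 regulators stood higher and 62 lower, by a median of 920 places; RLE size factors gave 19.4% again.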
